A study of Mus musculus with 81 samples.

Results

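The 10 genes described here encode factors that keep chromatin and retroelements silent: Setdb1, Suv39h1, Suv39h2, Ehmt1 and Ehmt2 (histone H3 lysine 9 methyltransferases), Trim28 (a co-repressor), Cbx5 and Morc3 (chromatin-bound repressors), and Dnmt1 and Uhrf1 (DNA methylation). They were chosen by symbol, for what they are known to do, from the 54079 genes in the count tables, and all 10 had enough reads to be tested in every experiment. RNA-seq read counts were followed across 81 mouse macrophage libraries in 5 experiments, of which 79 could be placed in 27 groups, 25 of them with 3 libraries and 2 with 2. The question is how the mRNA of the silencing machinery itself behaves in macrophages of the genotype labelled H3.3cKO, and when macrophages meet interferon or antibodies.

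All mice were C57BL/6, male and female, 8 to 10 weeks old, and carried floxed H3f3a and H3f3b, the genes for histone H3.3, on both alleles (H3f3a fl/fl:H3f3b fl/fl). WT mice had no Cre, and cKO mice (H3.3cKO) also carried LysM cre/cre, which recombines the floxed alleles in macrophages and granulocytes and whose insertion removes Lyz2. The genotypes therefore differ in Cre and Lyz2 as well as in H3.3. Bone marrow-derived macrophages (BMDMs) were grown from marrow in L929-conditioned medium. In the time course, cells of both genotypes were taken at day 3, day 5 and day 7. On day 8, cells were left untreated or given interferon-γ (IFNγ) for 12 h. In the antibody experiment WT and cKO cultures had no antibody, a control antibody or an antibody against IFNAR1, a subunit of the type I interferon receptor, at 10 µg/mL from day 0, renewed every 12 h, and were lysed on day 6. Peritoneal macrophages of both genotypes were taken without culture, and their libraries were made with another kit. The last experiment holds 3 sets of WT and cKO BMDMs with 3 double knockouts, H3.3cKO:StingKO, H3.3cKO:MavsKO and H3.3cKO:Irf7KO, in which Sting, Mavs or Irf7 is deleted in the germline on top of the cKO. The day of these cultures and the set to which each double knockout belongs are not in the labels. The deposited counts list 54146 genes for set 3 and H3.3cKO:Irf7KO. For sets 1 and 2, H3.3cKO:StingKO and H3.3cKO:MavsKO they list 55536, and the 54079 genes shared by all were used.

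Heterochromatin is kept silent by marks that recruit their own writers. KRAB zinc finger proteins bring TRIM28 to retroelements, TRIM28 brings SETDB1, and the H3K9 trimethylation that SETDB1 and the SUV39H enzymes lay down is bound by HP1 proteins such as the product of Cbx5. EHMT1 and EHMT2 (GLP and G9a) act together in H3K9 dimethylation, UHRF1 reads H3K9 methylation and hemimethylated DNA and recruits DNMT1 after replication, and MORC3 is an ATPase found in nuclear bodies that takes part in retroelement silencing. Uhrf1 and Dnmt1 are known as genes of proliferating cells, transcribed as DNA is copied. H3.3 is itself deposited on heterochromatin and retroelements by DAXX and ATRX.

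Among the 10, 3 members carry the motif of E2F transcription factors, the regulators of S phase genes, near an annotated start, and these windows are shown (starts numbered as in the RefSeq table) for the letters they hold. Windows of 300 bases began 250 bases before each start (RefSeq, GRCm38.p6), and there were 16 for the 10 members. The letters searched were TTTGGCGC, TTTGCCGC, TTTCGCGC and TTTCCCGC on both strands. They stand in 1 window each of Suv39h1 (GCGGCAAA, 64 bases before the start), Uhrf1 (TTTCGCGC, 185 bases before) and Dnmt1 (GCGCGAAA, 219 bases before, and TTTGGCGC, 34 bases after). So 3 of 10 members had a match, against 2.6% of 27025 genes and 2.26% of 32851 windows, and no window of Cbx5, Trim28, Ehmt2, Morc3, Ehmt1, Setdb1 or Suv39h2 held one. In the sequences, read along the gene's strand, capitals mark the matches.
Uhrf1, start 2, chr17:56304063-56304362, plus strand: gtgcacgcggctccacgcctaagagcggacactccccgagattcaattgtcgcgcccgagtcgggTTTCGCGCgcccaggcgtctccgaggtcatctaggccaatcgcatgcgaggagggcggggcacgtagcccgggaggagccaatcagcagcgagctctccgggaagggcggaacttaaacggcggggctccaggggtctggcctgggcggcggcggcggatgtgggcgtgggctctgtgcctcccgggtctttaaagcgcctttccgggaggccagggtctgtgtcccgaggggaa
Dnmt1, start 3, chr9:20952574-20952873, minus strand: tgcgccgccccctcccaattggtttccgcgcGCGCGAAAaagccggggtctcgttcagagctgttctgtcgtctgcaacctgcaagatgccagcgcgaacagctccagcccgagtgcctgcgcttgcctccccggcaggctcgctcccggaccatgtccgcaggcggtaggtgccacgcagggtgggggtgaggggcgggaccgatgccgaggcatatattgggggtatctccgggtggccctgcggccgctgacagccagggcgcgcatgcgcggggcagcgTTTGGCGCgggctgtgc
Suv39h1, start 2, chrX:8074312-8074611, minus strand: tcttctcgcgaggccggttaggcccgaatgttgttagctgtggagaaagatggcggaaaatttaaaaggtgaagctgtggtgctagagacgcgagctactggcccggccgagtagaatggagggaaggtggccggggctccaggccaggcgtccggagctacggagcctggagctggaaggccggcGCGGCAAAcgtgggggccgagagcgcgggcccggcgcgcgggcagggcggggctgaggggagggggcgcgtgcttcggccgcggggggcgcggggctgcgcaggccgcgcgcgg
The CHR motif of cell cycle genes (TTTGAA, both strands) stood in windows of Suv39h2 and Dnmt1 (20.2% of genes have one). The interferon-stimulated response element (ISRE, 2 GAAA repeats spaced by 2 free bases, both strands) stood in 1 window of Cbx5 (3.99% of genes), and the GAS motif TTCNNNGAA in no window of a member (9.55% of genes). No member window held matches to more than 1 of the 4 motifs. A match is a string of letters and not a site shown to be bound.

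In GRCm38, Setdb1 lies at chr3:95323525-95357202 (minus strand), Trim28 at chr7:12999114-13031035 (plus), Suv39h1 at chrX:8061171-8074760 (minus), Suv39h2 at chr2:3455815-3475031 (minus) and Ehmt1 at chr2:24789928-24919614 (minus). Ehmt2 lies at chr17:34898469-34914052 (plus), Cbx5 at chr15:103191544-103239816 (minus), Dnmt1 at chr9:20907209-20959888 (minus), Uhrf1 at chr17:56303321-56323486 (plus) and Morc3 at chr16:93832121-93876073 (plus). The counts ignore strand, and 4 members share exon bases with another gene, so a share of their reads cannot be assigned. The shared part is 14.6% of the exon bases of Suv39h1 (with Gm14820), 9.98% of Suv39h2 (with Dclre1c and Gm13184), 4.73% of Setdb1 (with Cers2 and Gm37500) and 0.259% of Ehmt1 (with Gm37139).

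Libraries held 3614967 to 45581528 counts on genes, and levels are given as CPM, counts per 1e+06 counts on genes scaled across libraries with edgeR's TMM factors. Leaving aside cKO day 8 IFNγ replicate 1, described below, the lowest count of any member was 13, for Suv39h2 in peritoneal macrophages. In that replicate Suv39h2 had fewer counts, at 1.8 CPM, where H3f3a had 2 counts at 1.2 CPM. The 5 macrophage markers on the list were detected in every group. H3f3a was lower in cKO in all comparisons with WT (log2 fold change -1.87 to -3.47), while H3f3b was called lower only in the antibody experiment (-2.92 to -3.12) and lay at -0.16 to -0.41 elsewhere. Outside the antibody experiment the H3f3b counts thus do not show the loss that the label states, so cKO stands throughout for the libraries labelled cKO. One library stands apart: cKO day 8 IFNγ replicate 1 had 57.06% unmapped reads (1.69% to 18.4% in the others) and a TMM factor of 0.46, and member results resting on it are given with and without it. Lyz2 was at -8.53 to -14.6 in cKO.

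Among the 10 genes, the levels per length span a wide range. In WT cells on day 5, Dnmt1 had 51.9 ± 0.9 CPM per kb of exon (SD, n = 3), Trim28 50.1 ± 6.34, Uhrf1 42.0 ± 5.80 and Ehmt2 38.4 ± 2.29, and neighbours in this order overlapped between libraries. Cbx5 followed with 24.8 ± 0.58, Morc3 with 18.7 ± 0.974, Setdb1 with 11.9 ± 0.695, Ehmt1 with 9.09 ± 0.673, Suv39h1 with 7.41 ± 0.591 and Suv39h2 with 2.05 ± 0.457 CPM per kb, and these did not overlap.
In peritoneal WT macrophages the order was another one. Morc3 stood first with 24.3 ± 4.2 CPM per kb, before Trim28 with 13.5 ± 0.492, Ehmt2 with 10.4 ± 2.47 and Dnmt1 with 9.15 ± 2.0. Setdb1 had 7.07 ± 2.53, Ehmt1 6.66 ± 1.37, Uhrf1 4.68 ± 1.22, Suv39h1 3.64 ± 0.392, Cbx5 1.27 ± 0.491 and Suv39h2 0.301 ± 0.0734 CPM per kb. Morc3 was apart from Trim28, and Cbx5 and Suv39h2 were apart from the rest and from each other, while all other neighbours overlapped between libraries. Kit and cell source differ together, so cultured and peritoneal levels are set side by side without a test.

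**Figure D1:**
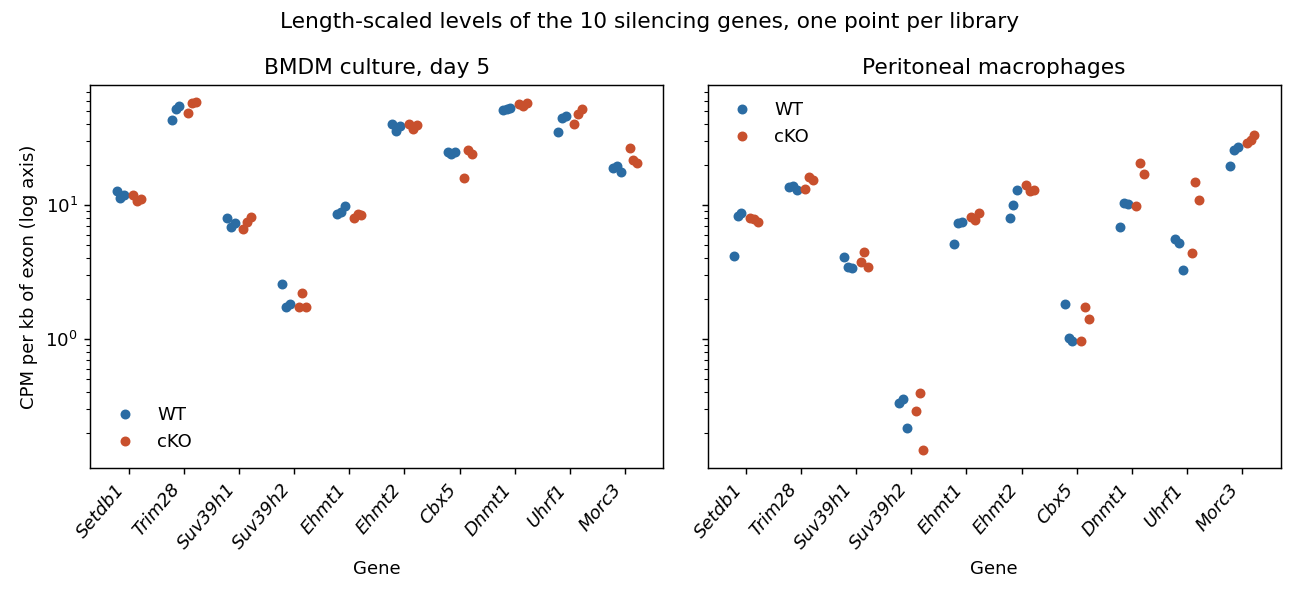
CPM per kb of exon (log axis) of the 10 silencing genes, one point per library, in BMDMs on day 5 and in peritoneal macrophages, WT in blue and cKO in red. Dnmt1, Trim28 and Uhrf1 lead on day 5, Morc3 leads in peritoneal cells, and Suv39h2 is lowest in both.

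The libraries labelled cKO were compared with WT in 12 pairs of groups. Outside the 3 BMDM sets, edgeR's quasi-likelihood test (adjusted p under 0.05 over all genes) called 1 of 90 member and comparison pairs in 9 comparisons, and 8 comparisons called no member. Over all genes the same 9 comparisons called 3.51% of pairs, so a low count of members is not particular to them. In the time course, edgeR and DESeq2 called 0 of 10 members on day 3 (7.73% of all genes called), 0 on day 5 (2.83%) and 0 on day 7 (1.4%). At an unadjusted p under 0.05, Morc3 passed on days 3 and 5 (21.8% and 13.6% of genes) and no member on day 7 (16.5%). The median log2 fold change of the members was -0.0506 on day 3, beside 0.0362 over all genes.

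Morc3, the ATPase of nuclear bodies, was the member nearest to a call in the main fits of days 3 and 5. On day 3 it had 87.61, 101.0 and 96.65 CPM in WT and 103.0, 113.3 and 123.4 CPM in cKO, and on day 5 it had 102.7, 105.9 and 95.56 CPM in WT and 144.4, 118.3 and 111.3 CPM in cKO. On both days all cKO libraries lay above all WT libraries, which held for 18.3% and 15.4% of all genes. The log2 fold changes of 0.25 and 0.30 were not called. On day 7 the libraries of both genotypes overlapped. Other settings brought other members nearer on day 3. Over 13 edgeR and DESeq2 fits Cbx5 lay at -0.49 to -0.32, lower in cKO and never called. Its lowest adjusted p in these fits was 0.0535, beside 0.123 for Uhrf1 and 0.134 for Morc3.

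On day 7 the values of the replication-linked members in WT turned on 1 library. Uhrf1 had 204.0, 27.85 and 157.4 CPM in WT and 201.9, 173.2 and 165.5 CPM in cKO. Dnmt1 had 373.6, 152.9 and 343.1 CPM in WT, and Cbx5, the gene of HP1α, had 209.3, 62.48 and 207.7 CPM. WT day 7 replicate 2 was far below its partners for all 3 genes, and the summed level of 15 proliferation genes was also lowest there, with a range of 963 to 3180 CPM in the WT group. The log2 fold change of Uhrf1 was 0.47 with this library and -0.01 without it, and that of Dnmt1 0.42 and 0.11, none of them called.

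Over time within a genotype, edgeR and DESeq2 called 0 members from day 3 to day 5 in WT (2.64% of genes) and in cKO (3.59%), and 0 from day 5 to day 7 in WT (0.238%) and in cKO (0.0564%). At an unadjusted p under 0.05, Setdb1 passed between days 3 and 5 (20.6% of genes) and Morc3 between days 5 and 7 (17.3%), both in WT, and none in cKO (18.4% and 5%). The difference between the cKO effects on day 5 and day 3 was called for 0 members (0% of genes), as was that between day 7 and day 3 (0.0439%), and DESeq2 called 0 as well. None passed at an unadjusted p under 0.05 either (4.48% and 15.5% of genes).

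Of the wider silencing lists, 51 of 52 genes were tested in the time course, with 3 higher and none lower in cKO on day 3 (7.73% of all genes called) and 1 higher and none lower on day 5 (2.83%). Daxx, which delivers H3.3 to heterochromatin and is also an interferon-responsive gene, was higher in cKO on day 3 (log2 fold change 1.48, adjusted p = 0.0152) and day 5 (1.49, adjusted p = 0.0303). Atf7ip, the cofactor that stabilises SETDB1, rose by 0.87 (adjusted p = 0.00865) and the demethylase gene Kdm1a by 0.44 (adjusted p = 0.00607) on day 3. All 12 genes of the interferon list were called higher on both days, with median log2 fold changes of 6.28 and 4.35.

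On day 8, untreated WT and cKO cells differed in 0 of 10 members by edgeR and by DESeq2 (0.612% of genes called), and none passed at an unadjusted p under 0.05 (6.18% of genes). Under IFNγ edgeR called 0 (4.83% of genes). DESeq2 called 1, and Ehmt2 and Suv39h1 passed at an unadjusted p under 0.05 (24.1% of genes). Without the library with few mapped reads, Ehmt2 was at 0.26 and Suv39h1 at -0.25 on the log2 scale. Where that library alone stood for cKO, they were at 1.23 and -1.49. In peritoneal macrophages edgeR and DESeq2 called 0 (0.971% of genes), and 2 members passed at an unadjusted p under 0.05 (9.2% of genes). Uhrf1 had 23.6, 22.14 and 13.99 CPM in WT and 18.79, 62.92 and 46.67 CPM in cKO. Dnmt1 had 50.47, 76.29 and 75.78 CPM in WT and 72.13, 152.3 and 126.2 CPM in cKO. In both genes 2 cKO libraries lay above all WT libraries and the other overlapped with WT, and the log2 fold changes were 1.11 and 0.79. Mki67, a marker of cycling cells, had 33.83, 36.48 and 34.9 CPM in WT and 45.76, 76.86 and 71.76 CPM in cKO (adjusted p = 0.153), with its part in these values not tested.

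Without antibody, the 1 member called between cKO and WT was Morc3 (7.1% of genes called, 3.39% higher and 3.72% lower). It had 84.85, 76.02 and 64.76 CPM in WT and 106.3, 95.55 and 96.96 CPM in cKO. The groups did not overlap, which held for 20.2% of all genes in this direction. The log2 fold change was 0.41 ± 0.109 (SE, edgeR adjusted p = 0.0349). That call was lost on leaving out 5 of the 6 libraries in turn and with only the compared groups in the model. With the control antibody 0 members were called by edgeR and DESeq2 (4.45% of genes), with Cbx5 alone at an unadjusted p under 0.05 (15.7% of genes). With the IFNAR1 antibody 0 were called by both tools (0.675% of genes), and 4 passed at an unadjusted p under 0.05 (11.7% of genes). Those 4 were all lower in cKO, among them Uhrf1 with a log2 fold change of -0.99 and Dnmt1 with -0.56.

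**Figure D2:**
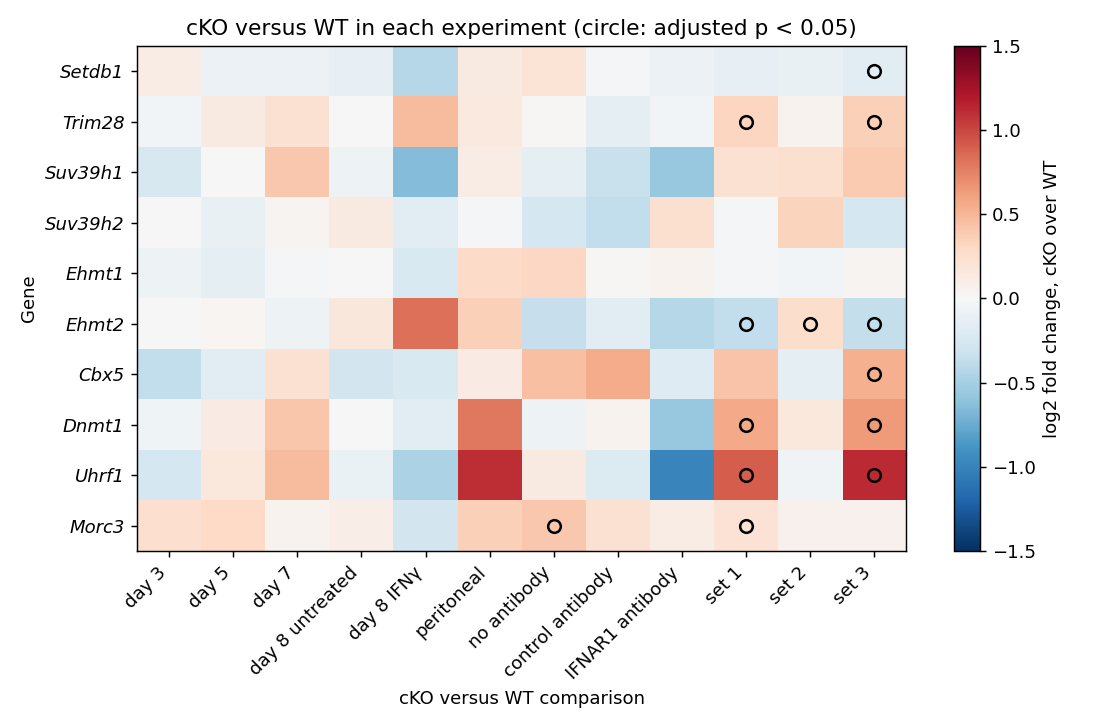
Log2 fold change of each silencing gene in cKO over WT (colour) in the 12 comparisons, with a circle where edgeR's adjusted p was under 0.05. Of the 13 circles among 120 cells, 12 are in the 3 BMDM sets and 1 is Morc3 without antibody. Over all genes, 34.7%, 21% and 34.9% were called in sets 1, 2 and 3, and 3.51% of pairs in the other 9 comparisons.

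In the 3 BMDM sets more of all genes were called than in the other cKO comparisons (21% to 34.9%, against 3.51% of pairs). In sets 1 and 3, the DNA methylation pair Uhrf1 and Dnmt1 and the co-repressor gene Trim28 were called higher in cKO, and Ehmt2 lower. In the other set the genotypes overlapped for Uhrf1, and Ehmt2 was higher in cKO. Dnmt1 and Trim28 were not called there, but their cKO effects were not called different between sets either. In set 1, 4 members were higher and 1 lower, where 34.7% of all genes were called, 18% higher and 16.7% lower. In set 3, 4 were higher and 2 lower (34.9% of genes called, 16.9% higher and 18% lower). In set 2, 1 was higher and none lower (21% called, 9.74% higher and 11.3% lower). The members' median log2 fold changes were 0.227 in set 1, 0.0585 in set 2 and 0.214 in set 3, beside -0.0305, -0.0107 and -0.0529 over all genes. Of all genes, 21.3% were higher and 20.1% lower in cKO without overlap in set 1. In set 2 these shares were 20% and 24.5%, and in set 3 they were 20.8% and 22.4%.

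Uhrf1 had 88.23, 131.1 and 94.75 CPM in WT and 182.6, 204.1 and 202.9 CPM in cKO of set 1. In set 3 it had 37.45, 122.2 and 102.1 CPM in WT and 175.4, 203.6 and 187.5 CPM in cKO. All cKO libraries were above all WT libraries in both sets, with log2 fold changes of 0.91 ± 0.235 (adjusted p = 0.00401) and 1.12 ± 0.237 (adjusted p = 0.000641).
In set 2, WT had 237.4, 185.2 and 215.6 CPM and cKO 196.3, 230.7 and 186.6 CPM of Uhrf1, and the groups overlapped (log2 fold change -0.06). The cKO libraries of the 3 sets lay between 175.4 and 230.7 CPM, and the WT libraries of set 2 all lay above those of sets 1 and 3. Tested as the difference between cKO effects, a comparison added after the data had been seen, Uhrf1 differed between set 1 and set 2 (0.96 ± 0.33, adjusted p = 0.0409) and between set 3 and set 2 (1.17 ± 0.331, adjusted p = 0.0139). In these tests 2 members, 1 in each direction, passed for sets 1 and 2 (20% of genes called, 11.6% higher and 8.42% lower), and 3 members, 1 higher and 2 lower, for sets 3 and 2 (19.5%, 10.5% higher and 9.04% lower). The Uhrf1 difference between sets 1 and 2 was lost in 9 of 12 fits that left out 1 library, and that between sets 3 and 2 in 0. With only the compared groups in the model, the Uhrf1 fold change of set 3 (adjusted p = 0.0527) and its difference from set 2 (adjusted p = 0.0638) were not called. WT set 3 replicate 1 was the lowest library, and without it the Uhrf1 fold change of set 3 was 0.75 (adjusted p = 0.000234).

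Dnmt1, the maintenance methyltransferase that UHRF1 recruits, followed the same order. It had 220.3, 310.2 and 251.4 CPM in WT and 372.5, 381.7 and 401.6 CPM in cKO of set 1, and 170.7, 295.6 and 249.6 CPM in WT and 359.8, 391.3 and 363.1 CPM in cKO of set 3. The groups were apart in both, with log2 fold changes of 0.56 ± 0.129 (adjusted p = 0.00142) and 0.64 ± 0.13 (adjusted p = 0.000412). In set 2 it had 381.1, 336.4 and 372.5 CPM in WT and 398.5, 424.9 and 391.2 CPM in cKO, which did not overlap either, but the fold change of 0.16 was not called. The difference between the cKO effects was not called for Dnmt1 (0.41 for set 1 against set 2, adjusted p = 0.12, and 0.48 for set 3 against set 2, adjusted p = 0.0651).

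Trim28 had 161.4, 205.8 and 200.6 CPM in WT and 227.4, 221.7 and 260.3 CPM in cKO of set 1 (log2 fold change 0.32 ± 0.0995, adjusted p = 0.0142). In set 3 it had 142.7, 181.6 and 169.9 CPM in WT and 192.0, 226.3 and 216.1 CPM in cKO (0.36, adjusted p = 0.00632, and 0.0513 without WT set 3 replicate 1). All cKO libraries exceeded all WT libraries in both sets. The set 1 call was lost without WT set 1 replicate 1 (0.22) or cKO set 1 replicate 3 (0.25). In set 2 Trim28 lay at 0.03 to 0.09 over all edgeR and DESeq2 fits, never called. Its difference between cKO effects was called in no such fit. The lowest adjusted p was 0.112 for set 1 against set 2 and 0.0598 for set 3 against set 2.
Cbx5 was called in set 3, a call lost without the same library or without cKO set 3 replicate 2. It had 84.81, 177.2 and 166.5 CPM in WT and 209.7, 211.3 and 198.1 CPM in cKO (0.53 ± 0.174, adjusted p = 0.0195), and without WT set 3 replicate 1 the fold change was 0.26 (adjusted p = 0.123). Setdb1 had 84.54, 76.15 and 73.52 CPM in WT and 70.4, 67.72 and 70.38 CPM in cKO of set 3, slightly lower in cKO without overlap (-0.17 ± 0.0624, adjusted p = 0.0387, and 0.221 without WT set 3 replicate 1, a call lost in 4 of 6 fits that left out 1 library). Morc3 was 0.22 ± 0.0772 higher on the log2 scale in cKO of set 1 (adjusted p = 0.0298), a call lost in 3 of 6 fits that left out 1 library.

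Ehmt2, the gene of the H3K9 dimethyltransferase G9a, moved the other way. It had 237.7, 263.9 and 328.9 CPM in WT and 212.9, 196.3 and 234.9 CPM in cKO of set 1 (log2 fold change -0.37 ± 0.0894, adjusted p = 0.00239). In set 3 it had 248.6, 256.0 and 253.7 CPM in WT and 193.4, 203.2 and 194.9 CPM in cKO (-0.36, adjusted p = 0.00286). In set 2 it had 182.4, 179.6 and 183.5 CPM in WT and 210.4, 226.1 and 218.3 CPM in cKO (0.26, adjusted p = 0.0366, a call lost on leaving out any 1 of the 6 libraries). The genotypes were apart in every set, with cKO lower in sets 1 and 3 and higher in set 2. The difference between cKO effects was -0.63 ± 0.126 for set 1 against set 2 (adjusted p = 0.00105) and -0.62 for set 3 against set 2 (adjusted p = 0.00115). Suv39h2 differed between sets 3 and 2 as well (-0.61 ± 0.216, adjusted p = 0.0494), with 14.36, 9.47 and 11.07 CPM in WT and 10.89, 8.946 and 9.214 CPM in cKO of set 3, and 6.773, 6.881 and 6.597 CPM in WT and 7.891, 10.21 and 7.548 CPM in cKO of set 2. The genotypes overlapped in set 3, cKO was higher throughout in set 2, and the call was lost in 9 of 12 fits that left out 1 library. On the same check the Ehmt2 calls of sets 1 and 3 and both its set differences held in every fit. With only the compared groups in the model, however, the Ehmt2 call of set 1 was lost (-0.35, adjusted p = 0.0771), while those of sets 2 and 3 and both set differences were kept. In that model only Dnmt1 and Uhrf1 were called in set 1, Dnmt1, Trim28 and Ehmt2 in set 3, and Dnmt1, Ehmt2, Suv39h1 and Suv39h2 in set 2, and the difference for Suv39h2 was lost (adjusted p = 0.0909).

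Of the wider silencing lists, 51 of 52 genes were tested. In set 1, 20 were higher and 7 lower in cKO (18% and 16.7% of all genes). In set 3, 16 were higher and 9 lower (16.9% and 18%), and in set 2, 7 were higher and 4 lower (9.74% and 11.3%). Hells, a remodeler needed for DNA methylation, rose by 1.23 in set 1 and 1.28 in set 3 on the log2 scale, and in set 3 Chaf1b, a subunit of the replication-coupled H3 chaperone CAF-1, rose by 0.80. Kmt5c, which methylates H4K20 at heterochromatin, was at -0.76 and -0.84 and the H3K9 demethylase gene Kdm3a at -0.46 and -0.57 in sets 1 and 3. Higher in set 2 were Lbr at 0.67, Atf7ip at 0.55 and Daxx at 0.52, and lower were Dnmt3a at -0.73, Tet3 at -0.56 and Mbd3 at -0.41.
Proliferation genes moved in the same sets: 7 of 15 were higher in cKO in set 1, 1 in set 2 and 7 in set 3, while Mki67 itself was not called (-0.16, 0.44 and -0.11). The summed proliferation level was 2120 to 3190 CPM in WT and 3050 to 3180 CPM in cKO of set 1, and 1360 to 3080 CPM in WT and 2930 to 3100 CPM in cKO of set 3. In set 2 it was 2530 to 2910 CPM in WT and 2550 to 3160 CPM in cKO. Its part in the results for Uhrf1 and Dnmt1 was not tested. The summed interferon list was higher in cKO in every set, at 1220 to 1510 CPM against 247 to 506 in set 1, 1120 to 1610 against 474 to 577 in set 2 and 1050 to 1230 against 246 to 460 in set 3. In these bulk cultures, fewer cells of a type and less RNA per cell cannot be told apart.

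**Figure D3:**
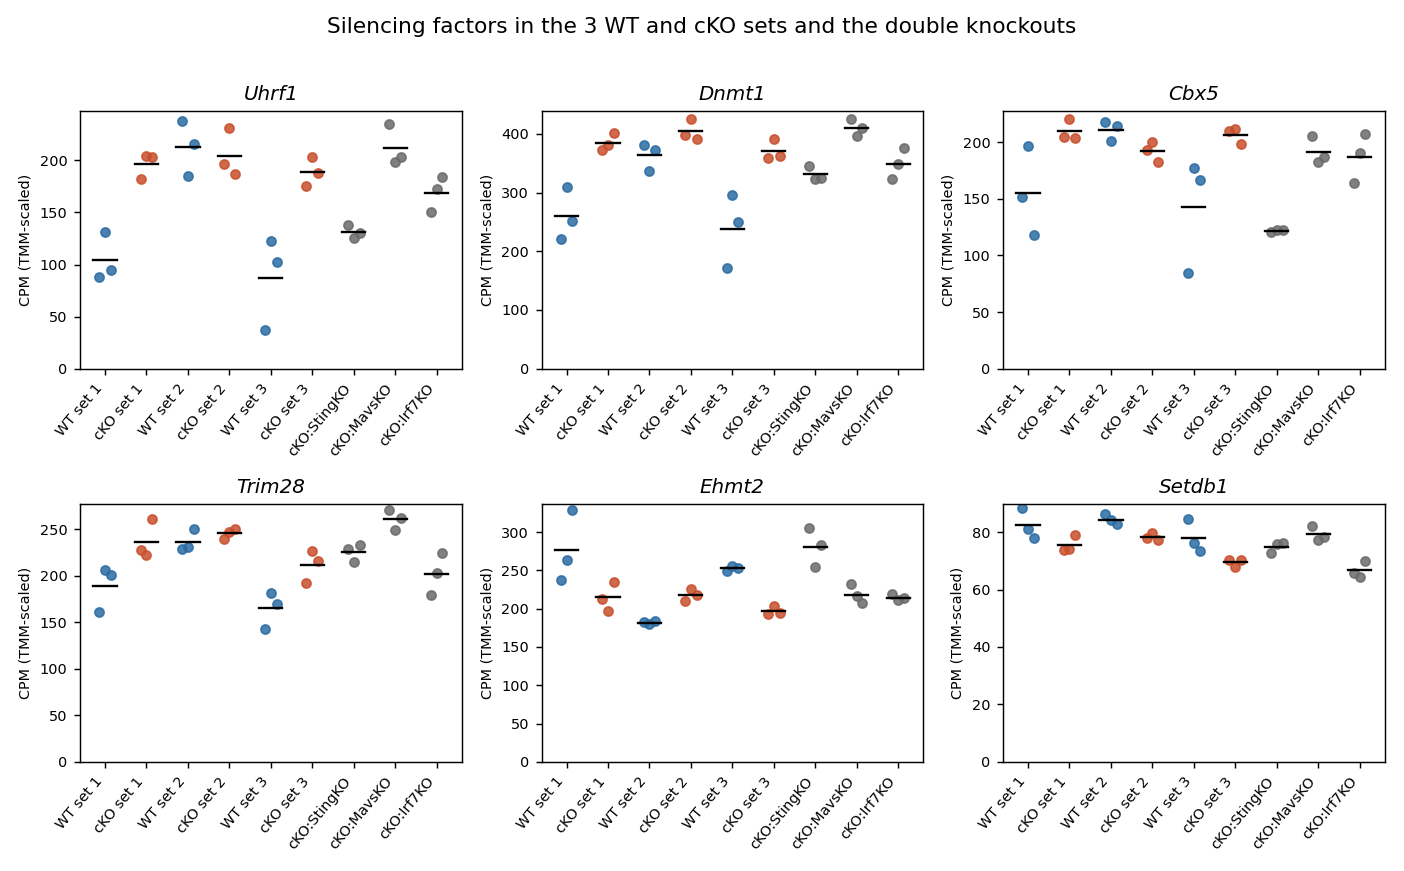
TMM-scaled CPM of 6 silencing genes in each library of the 3 WT (blue) and cKO (red) sets and the 3 double knockouts (grey), with bars at group means. Uhrf1 and Dnmt1 are lower in WT of sets 1 and 3 than in cKO, Ehmt2 is higher there, and the H3.3cKO:StingKO libraries have the lowest Cbx5 after 1 WT library of set 3 and 1 of set 1.

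Removing an innate sensing gene from the cKO was then set against the mean of the 9 cKO libraries of the 3 sets. H3.3cKO:StingKO differed in 6 members, 1 higher and 5 lower (36.1% of genes called, 18.9% higher and 17.2% lower), with a member median of -0.206 beside 0.0197 over all genes. For H3.3cKO:MavsKO edgeR called 0 members (8.79% of genes), DESeq2 1, and Trim28 and Ehmt1 passed at an unadjusted p under 0.05 (21.7% of genes). For H3.3cKO:Irf7KO edgeR called 0 (9.85%), DESeq2 1, and Trim28, Setdb1 and Ehmt1 passed at an unadjusted p under 0.05 (23.8% of genes).

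Cbx5 had 121.1, 122.2 and 122.4 CPM in H3.3cKO:StingKO, where the 9 cKO libraries ran from 182.7 through a median of 203.4 to 220.7 CPM. No library of one group reached the other, and the log2 fold change was -0.73 ± 0.148 (adjusted p = 0.000486). Of all genes, 11.6% were higher and 12.3% lower without overlap. Uhrf1 had 137.7, 125.4 and 129.8 CPM against 175.4 to 230.7 with a median of 196.3 CPM (-0.59 ± 0.197, adjusted p = 0.0225), again without overlap. Ehmt2 had 304.9, 254.5 and 283.3 CPM against 193.4 to 234.9 with a median of 210.4 CPM, all higher (0.42 ± 0.0712, adjusted p = 8.02e-05). Suv39h1 had 29.29, 29.2 and 29.74 CPM against 33.9 to 42.88 CPM (-0.36, adjusted p = 0.0492), while Suv39h2 (-0.34, adjusted p = 0.0433) and Morc3 (-0.19, adjusted p = 0.0232) overlapped between the groups.
These values depend on the reference. With cKO set 1 alone, 3 members were called (Cbx5, Ehmt2 and Suv39h1), with set 2 alone 5 (Cbx5, Ehmt1, Ehmt2, Morc3 and Uhrf1), and with set 3 alone 3 (Cbx5, Ehmt2 and Suv39h2). Cbx5 and Ehmt2 were called against each of the 3, and Uhrf1 against set 2 alone. Cbx5 and Ehmt2 also held in each of 12 fits that left out 1 library, while the Uhrf1 call was lost in 3, each without 1 of the H3.3cKO:StingKO libraries, and the Suv39h1 call in 11. Without H3.3cKO:StingKO replicate 1 or replicate 3, 2 members were called. Among the wider lists 7 of 51 genes were higher and 22 lower in H3.3cKO:StingKO (18.9% and 17.2% of all genes). Of the 10 HP1, HUSH and MORC genes tested, 8 were lower and none higher. Daxx was higher at 0.59, Dnmt3a at 0.33 and Kmt5c at 0.33, and lower were Hells at -1.23 and the Polycomb genes Suz12 at -0.68 and Eed at -0.64.
Other lists moved with this double knockout. Of 15 proliferation genes 8 were lower and none higher, with a summed level of 2070 to 2180 CPM against 2550 to 3180 CPM, and Mki67 was lower by edgeR (-0.50, adjusted p = 0.0203). The summed stromal markers stood at 163 to 200 CPM against at most 69.0 CPM in the cKO sets, and the summed interferon list at 1850 to 2310 CPM against 1050 to 1610 CPM. Their part in the silencing genes' values was not tested.

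On day 8, IFNγ changed a large share of all genes, so the count of members called is not particular to them. In WT cells IFNγ lowered Uhrf1, Dnmt1, Cbx5, Trim28 and Ehmt1 and raised Morc3. These were 6 of 10 members called, against 40.1% of all genes (20% higher and 20.1% lower). DESeq2 called 7. The median log2 fold change of the members was -0.337, beside -0.00936 over all genes. Without overlap between treated and untreated libraries, 31.5% of all genes were higher and 30.4% lower.

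Uhrf1 had 187.2, 140.2 and 188.4 CPM untreated and 57.67, 29.17 and 54.07 CPM with IFNγ. All treated libraries lay far below the untreated ones, a fall of 3.65-fold (log2 fold change -1.87 ± 0.243, adjusted p = 0.000201). Dnmt1 had 298.4, 258.1 and 279.2 CPM untreated and 144.7, 92.42 and 113.2 CPM with IFNγ (-1.25 ± 0.174, adjusted p = 0.000307). Cbx5 had 218.9, 152.9 and 201.0 CPM untreated and 111.6, 75.31 and 86.95 CPM with IFNγ (-1.06 ± 0.198, adjusted p = 0.00184). Neither gene's groups overlapped.
Trim28 went from 171.7, 155.3 and 165.7 CPM to 88.33, 87.07 and 97.19 CPM, again apart (-0.85 ± 0.234, adjusted p = 0.0149). Ehmt1, the gene of GLP, went from 46.09, 42.17 and 42.11 CPM to 35.8, 30.36 and 34.44 CPM (-0.37 ± 0.128, adjusted p = 0.0404). With the replicate number as a block, which pairs these libraries, Ehmt1 had an adjusted p of 0.0644 and the call was lost, as it was in 5 of 6 fits that left out 1 library. Trim28 was lost in 1 of 6, without WT IFNγ replicate 2 (adjusted p = 0.0556).
Morc3 rose from 106.8, 104.4 and 99.18 CPM to 268.8, 293.6 and 242.1 CPM (1.37 ± 0.296, adjusted p = 0.00427). It was the one member called higher, and it held in each of 6 fits that left out 1 library, as did Uhrf1, Dnmt1 and Cbx5. Suv39h1 (0.58), Ehmt2 (0.42), Setdb1 (-0.18) and Suv39h2 (-0.30) were not called.

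In cKO cells, with 2 libraries per group, 1 member was higher and 4 were lower (33.6% of genes called, 17.2% higher and 16.4% lower), and DESeq2 called 6. Uhrf1 had 152.0 and 169.9 CPM untreated and 38.03 and 30.98 CPM with IFNγ (-2.24 ± 0.312, adjusted p = 0.000475). Dnmt1 had 286.9 and 269.2 CPM untreated and 94.78 and 112.1 CPM with IFNγ (-1.42 ± 0.216, adjusted p = 0.000819). Cbx5 had 159.8 and 156.4 CPM untreated and 91.77 and 66.19 CPM with IFNγ (-1.02 ± 0.247, adjusted p = 0.0104). Both treated libraries were below both untreated ones in all 3 genes, as they were in Ehmt1 (-0.59 ± 0.164, adjusted p = 0.0186). That held for 32.1% of all genes.
The 2 treated libraries disagreed on other members. Ehmt2 had 145.6 and 159.8 CPM untreated and 435.9 and 215.7 CPM with IFNγ (1.08 ± 0.27, adjusted p = 0.0118). Morc3 had 115.3 and 106.6 CPM untreated and 112.9 and 325.7 CPM with IFNγ, and Trim28 had 156.4 and 172.6 CPM untreated and 176.3 and 79.85 CPM with IFNγ, neither of them called. The values in replicate 1, the library with few mapped reads, are the ones close to untreated levels for Morc3 and Trim28. Without it, Uhrf1 was at -2.35, Dnmt1 at -1.28, Cbx5 at -1.23, Ehmt1 at -0.52, Ehmt2 at 0.53, Trim28 at -1.02 and Morc3 at 1.58. Without replicate 2 instead, Uhrf1 was at -2.11, Dnmt1 at -1.58, Cbx5 at -0.81, Ehmt1 at -0.70, Ehmt2 at 1.48, Trim28 at 0.07 and Morc3 at -0.004. Each of these fits leaves 1 treated cKO library. With only the compared groups in the model, 2 members were called (Uhrf1 and Dnmt1). The response to IFNγ did not differ between cKO and WT by a call for any member: edgeR and DESeq2 called 0 (0% of genes), and none passed at an unadjusted p under 0.05 (8.45% of genes). That difference for Ehmt2 was 0.12 without cKO IFNγ replicate 1 and 1.06 without replicate 2, and for Morc3 0.225 and -1.38. A further 2 day 8 libraries, whose title and library name disagree on IFNγ, are in no group. Placed by their titles they leave 0 members called in WT and 0 in cKO, and placed by their library names 6 and 6.

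In the wider lists 49 of 52 genes were tested. In WT 6 were higher and 14 lower (20% and 20.1% of all genes), and in cKO 7 and 10 (17.2% and 16.4%). Daxx rose by 2.82 and 2.92 on the log2 scale in WT and cKO, and Setdb2, a relative of Setdb1 known as interferon-inducible, by 1.87 and 1.64. Hells fell by 2.08 and 2.25, Chaf1b by 1.99 and 1.79, and in WT Morc4 fell by 2.38. Of 15 proliferation genes, 6 were lower in WT and 11 in cKO and none higher, and their summed level was 1780 to 2990 CPM untreated and 1030 to 1760 CPM with IFNγ in WT, and 2200 to 2210 and 918 to 1020 CPM in cKO. Their part in the falls of Uhrf1, Dnmt1 and Cbx5 was not tested.

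**Figure D4:**
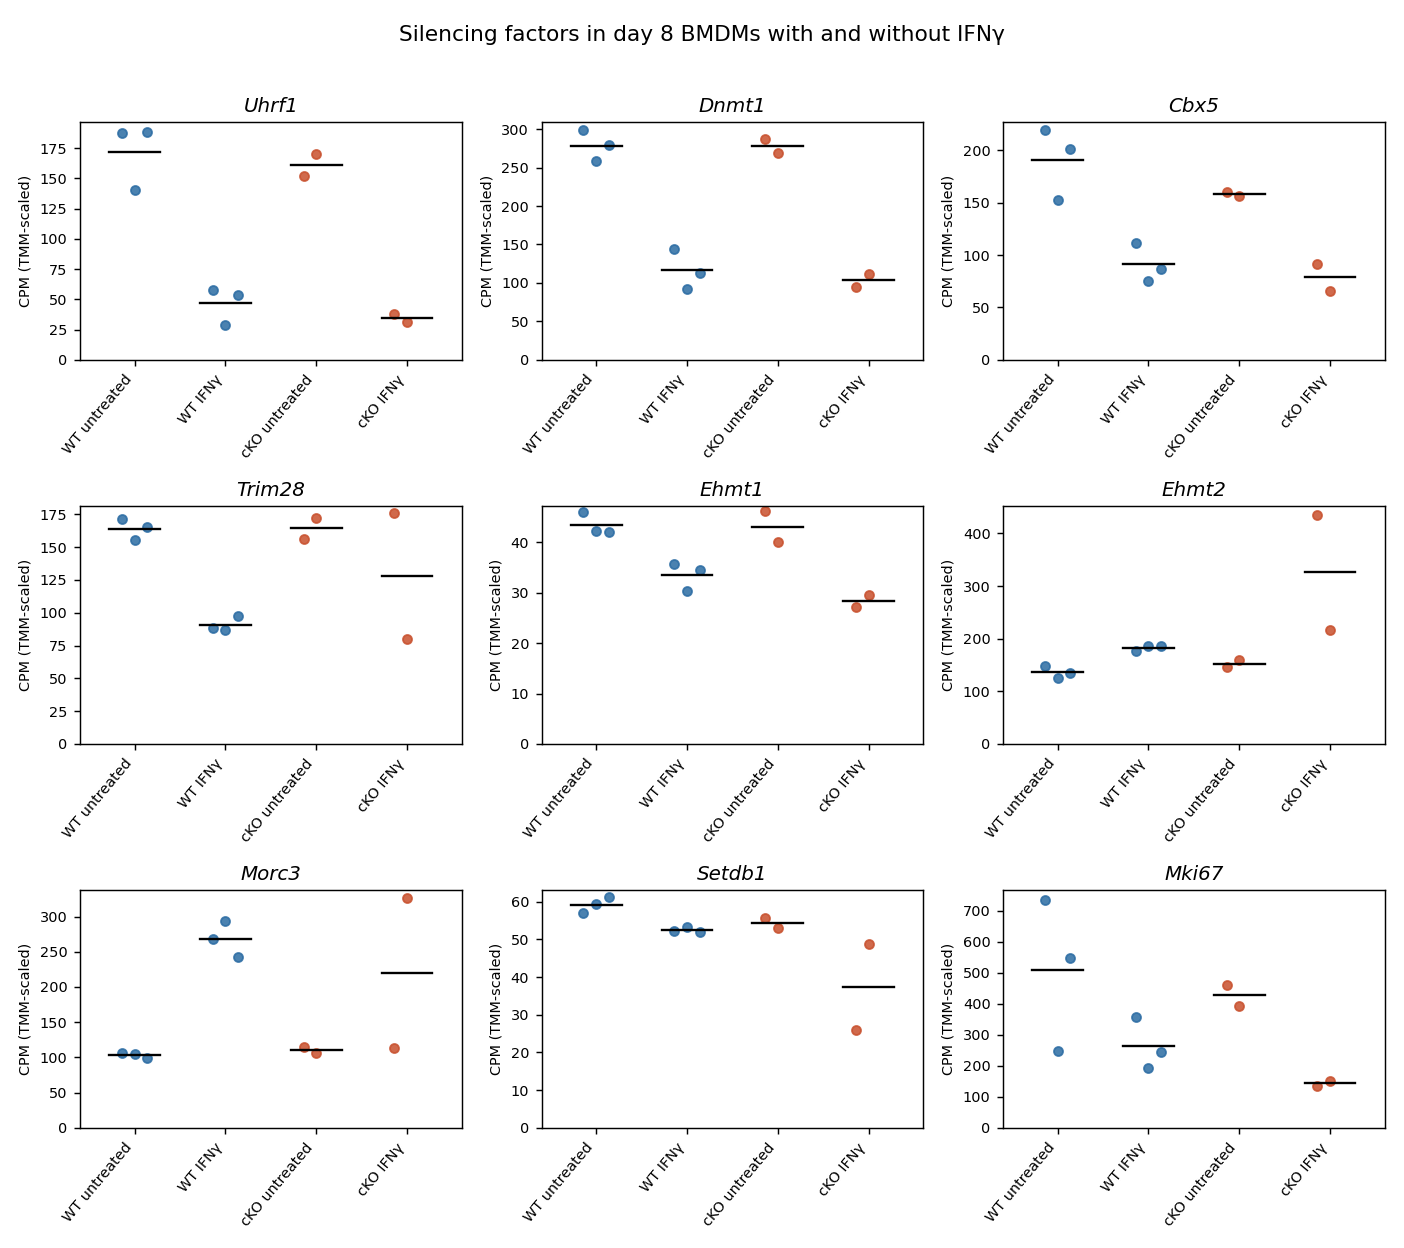
TMM-scaled CPM of 8 silencing genes and of Mki67 in each day 8 library, WT (blue) and cKO (red), untreated and with IFNγ, with bars at group means. Uhrf1, Dnmt1 and Cbx5 are lower with IFNγ in every library, and for Morc3 and Trim28 the cKO IFNγ libraries split.

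With the IFNAR1 antibody, Uhrf1, Dnmt1 and Suv39h1 were called higher than with the control antibody in WT, and Suv39h1 and Suv39h2 in cKO. In WT, 3 members were higher and none lower (9.89% of genes called, 6.83% higher and 3.06% lower), and DESeq2 called 7. Their median log2 fold change over all 10 was 0.525, beside 0.0113 over all genes. Uhrf1 had 29.82, 11.27 and 15.38 CPM with the control antibody and 72.84, 88.89 and 48.34 CPM with the IFNAR1 antibody (1.90 ± 0.376, adjusted p = 0.00707). Suv39h1, the gene of an H3K9 methyltransferase, had 9.941, 8.495 and 7.779 CPM against 26.52, 27.35 and 16.47 CPM (1.42 ± 0.244, adjusted p = 0.00389). Dnmt1 had 173.4, 151.2 and 138.3 CPM against 269.4, 279.5 and 184.5 CPM (0.66 ± 0.167, adjusted p = 0.0231). All 3 genes were higher in every IFNAR1 library than in any control library, which held for 15.6% of all genes. Among the IFNAR1 libraries, replicate 3 was the lowest for Uhrf1, Suv39h1 and Dnmt1. Without it 8 members were called, but calls over all genes rose too, from 1700 to 6488. Without WT control antibody replicate 2, 1 member and 290 of all genes were called. Suv39h1 held in each of 6 fits that left out 1 library. With only the compared groups in the model, edgeR called 0 members and 0 of all genes.

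In cKO 2 members were higher (4.03% of genes called, 2.34% higher and 1.69% lower), and DESeq2 called 3. Suv39h1 had 8.383, 5.782 and 6.223 CPM with the control antibody and 20.1, 15.72 and 11.63 CPM with the IFNAR1 antibody (1.20 ± 0.248, adjusted p = 0.0187). Suv39h2, its close relative, had 7.856, 6.686 and 5.186 CPM against 22.95, 17.22 and 12.96 CPM (1.42 ± 0.286, adjusted p = 0.0165). Neither gene's groups overlapped, while 14% of all genes were higher without overlap. Both calls were lost without cKO control antibody replicate 2 or 3 or cKO IFNAR1 antibody replicate 1. They were also lost with only the compared groups in the model, where 0 members were called. Uhrf1 had 23.18, 12.65 and 12.03 CPM against 46.16, 35.93 and 23.35 CPM, higher in every library but not called (1.11). The difference between cKO effects under the 2 antibodies was called for 0 members by edgeR and DESeq2 (0% of genes), and Dnmt1 and Cbx5 passed at an unadjusted p under 0.05 (5.67% of genes).

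The control antibody was also compared with no antibody. Against no antibody, 1 member was higher and 2 were lower in WT (8.9% of genes called, 3.27% higher and 5.63% lower), and DESeq2 called 4. Suv39h2 went from 14.62, 19.25 and 18.28 CPM to 7.56, 8.891 and 9.243 CPM (-1.02 ± 0.278, adjusted p = 0.035). Suv39h1 went from 18.23, 14.97 and 15.65 CPM to the control antibody values given before (-0.90 ± 0.242, adjusted p = 0.0342). Ehmt1 went up from 57.12, 48.43 and 49.57 CPM to 69.93, 79.51 and 76.6 CPM (0.54 ± 0.156, adjusted p = 0.0425). None of these groups overlapped, where 21.6% of all genes were higher and 20.6% lower without overlap. The Suv39h1 call was lost in 6 of 6 fits that left out 1 library, and those of Suv39h2 and Ehmt1 in 5 each.
Uhrf1 had 49.68, 36.57 and 34.38 CPM without antibody in WT and was lower in every control library, without a call (-1.09, adjusted p = 0.0733). The replicate number pairs these libraries, and as a block it gave an adjusted p of 0.0129. In cKO, Suv39h1 was the 1 member lower (1.46% of genes called, 0.663% higher and 0.797% lower, DESeq2 3 members), from 17.81, 15.14 and 11.36 CPM without antibody (-1.09 ± 0.248, adjusted p = 0.041), a call lost in 4 of 6 such fits. The control antibody group is shared by the comparisons with IFNAR1 antibody and with no antibody, so their values are not independent.

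Proliferation genes moved alongside. In WT, Mki67 was at 2.99 on the log2 scale with IFNAR1 over control antibody (adjusted p = 0.00288) and at -2.28 with control over no antibody (adjusted p = 0.00918), and in cKO at 2.67 (adjusted p = 0.00726) and -2.39 (adjusted p = 0.0241), all by edgeR. Of 15 proliferation genes, 12 in WT and 9 in cKO were higher with IFNAR1 antibody, and 9 and 5 lower with control than without antibody. Their summed level in WT was 1370 to 1590 CPM without antibody, 399 to 789 CPM with control and 1360 to 3060 CPM with IFNAR1 antibody. Its part in the results for Uhrf1, Dnmt1, Suv39h1 and Suv39h2 was not tested. In the wider silencing lists 9 of 50 genes were higher and 1 lower in WT with IFNAR1 over control antibody (6.83% and 3.06% of all genes). The Polycomb methyltransferase gene Ezh2 led at 2.0, with the H3 chaperone gene Asf1b at 1.63 and Chaf1b at 1.33. The demethylase gene Kdm4a was lower at -0.50.

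**Figure D5:**
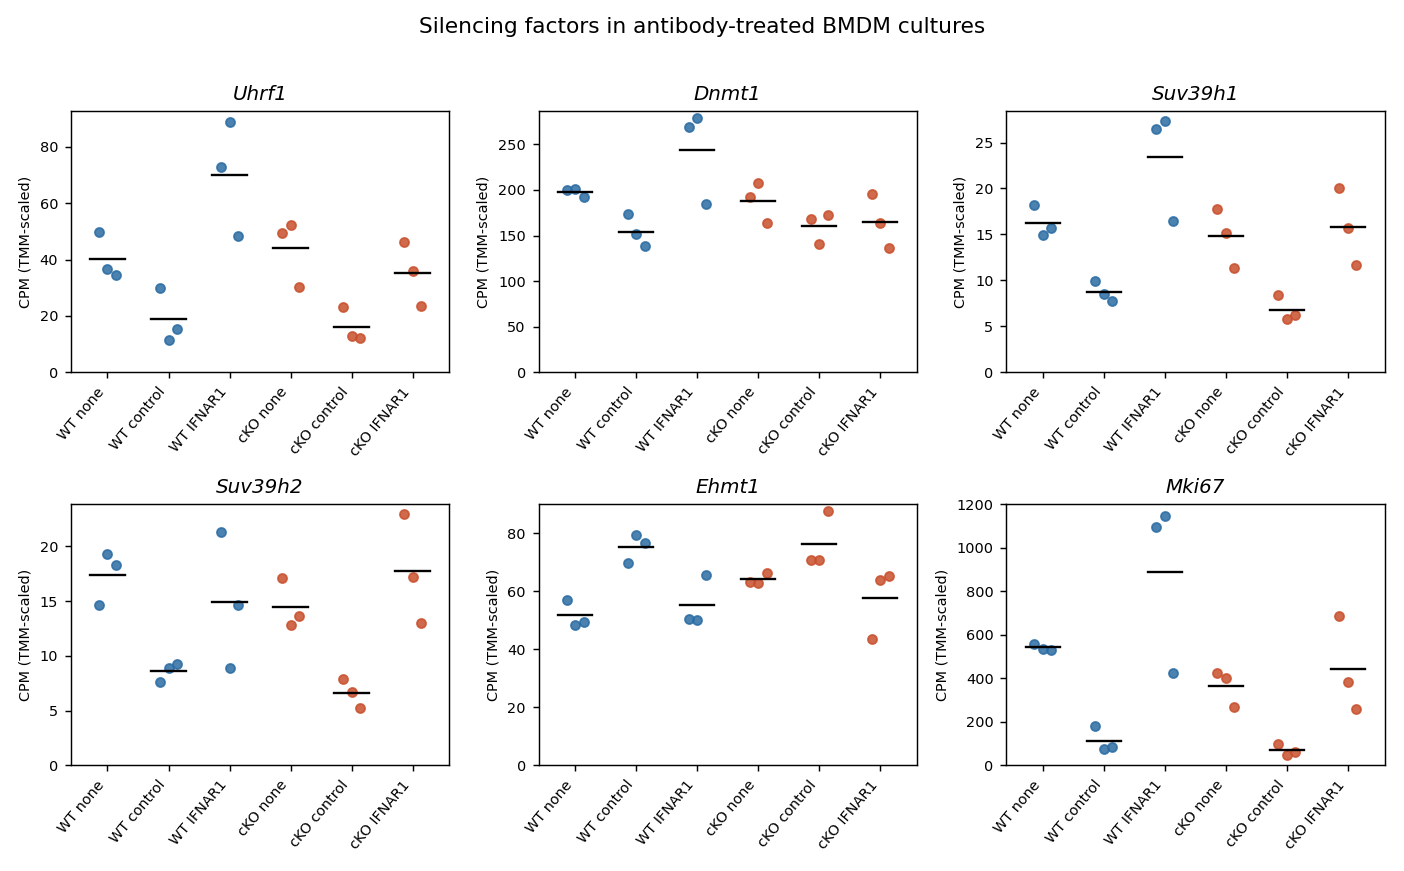
TMM-scaled CPM of 5 silencing genes and Mki67 in each library of WT (blue) and cKO (red) BMDMs that had no antibody, the control or the IFNAR1 antibody, with bars at group means. Uhrf1, Suv39h1 and Mki67 are lowest with the control antibody in both genotypes.

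Across the 79 libraries, the members had unlike patterns. Each library's log2 CPM was taken as its deviation from the mean of its experiment and correlated over 11170 genes detected throughout, which describes these libraries only, since libraries of a group share treatment and depth. The nearest genes to Uhrf1 were Mcm3 (Pearson's r = 0.963) and Dtl (0.961), to Dnmt1 Mcm4 (0.899) and Chaf1b (0.896), to Cbx5 Trip13 (0.883) and Prim2 (0.872), and to Suv39h1 Shcbp1 (0.876) and Cenpi (0.874). For Setdb1 they were Xpo7 (0.873) and Ncoa2 (0.845), for Trim28 Hnrnpl (0.877) and Ifrd2 (0.871), and for Morc3 Vcpip1 (0.891) and Tmod3 (0.88). Ehmt1 was nearest to Acot11 (0.835) and Smarcc1 (0.817), Ehmt2 to Ppp1r12c (0.848) and Phkg2 (0.812), and Suv39h2 to Gtf2a2 (0.721) and Tbc1d31 (0.72). Among the members themselves, Dnmt1 and Uhrf1 were nearest (0.895), then Cbx5 and Uhrf1 (0.762) and Cbx5 and Dnmt1 (0.696). With Mki67 the correlation was 0.76 for Suv39h1, 0.668 for Uhrf1, 0.64 for Suv39h2, 0.482 for Dnmt1, 0.422 for Cbx5, -0.292 for Ehmt1 and -0.261 for Morc3.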

How the data were processed

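RNA-seq of WT and H3.3cKO mouse macrophages was analysed from 81 libraries. Per the labels, the methods and the file layout, the authors trimmed reads with Cutadapt, aligned them to mm10 (the assembly GRCm38) with STAR and deposited STAR's raw counts per gene without normalization. The column that ignores strand was used, and the lines for unmapped, multimapping, ambiguous or intergenic reads were left out. Genes were joined on identifiers without version.

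Each experiment was fitted in one model with edgeR 4.0.16 (limma 3.58.1, R 4.3.3): filterByExpr with a minimum count of 10, TMM, the quasi-likelihood test, and Benjamini-Hochberg adjustment over all genes tested, 12361 to 18083 per experiment, called under 0.05. The SE is the log2 fold change divided by the square root of F, and list sums and levels from TMM-scaled CPM. DESeq2 1.42.0, RLE scaling, other filters, only the compared groups, a replicate block, other references and each library left out were the alternatives. The procedure was tested on simulated data with the same spread for every gene and no outlying library. That test does not cover groups with a library that stands apart. Counting error is smallest in the deepest libraries. Outside cKO day 8 IFNγ replicate 1, the least deep member value rests on 13 counts. Replicates differed beyond counting noise (lowest chi-square per degree of freedom 3.48).

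Replicate numbers were taken to pair libraries where every pair's deviations correlated above 0.1, which held in 6 of 22 comparisons: cKO against WT on day 3, on day 7 and in peritoneal cells, cKO day 7 against day 5, IFNγ in WT, and control against no antibody in WT. The members and the gene lists were chosen with earlier results of these data known. Named genes are the 10 members, up to 3 called genes in each direction from the other silencing lists per comparison, the 2 genes most like each member, and H3f3a, H3f3b, Lyz2 and Mki67.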

Additional observations from a re-analysis of the deposited data

Results flagged for a closer look

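The effect of cKO differed between the BMDM sets for 3 of the silencing genes, tested as interaction terms with edgeR over all genes, a test added after the data had been seen. It called 2 of 10 members for sets 1 and 2 (20% of all genes) and 3 for sets 3 and 2 (19.5%). For Uhrf1 the log2 fold change was 0.96 higher in set 1 than in set 2 (adjusted p = 0.0409) and 1.17 higher in set 3 than in set 2 (adjusted p = 0.0139). For Ehmt2 the differences were -0.63 (adjusted p = 0.00105) and -0.62 (adjusted p = 0.00115), and for Suv39h2 set 3 differed from set 2 by -0.61 (adjusted p = 0.0494). The Uhrf1 difference of sets 1 and 2 and the Suv39h2 difference of sets 3 and 2 were each lost in 9 of 12 fits that left out 1 library, and with only the compared groups in the model the Uhrf1 and Suv39h2 differences of sets 3 and 2 were lost. The labels do not say how the sets differ.

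Both cKO libraries of day 8 that are in no group lay outside the range of the untreated WT libraries for some members. The library with no IFNγ in its title was outside it for 9 of 10 members, 3 above and 6 below. Suv39h1 was at 37.33 CPM, Ehmt2 at 213.3 CPM and Morc3 at 340.8 CPM, where untreated WT libraries had 23.11 to 31.32, 127.5 to 149.4 and 100.4 to 108.1 CPM. Uhrf1 was at 27.35 CPM (untreated WT 141.9 to 190.7), Dnmt1 at 106.7 (261.3 to 302), Cbx5 at 60.61 (154.8 to 221.6), Trim28 at 79.27 (157.2 to 173.8), and Ehmt1 and Setdb1 were lower too. Against the WT libraries with IFNγ, 8 of its 10 members were outside the range, with Morc3 at 245 to 297.2 CPM there and at 114.3 and 329.6 CPM in cKO with IFNγ.

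The library with IFNγ in its title was outside the untreated WT range for 5 of 10 members. Suv39h2 was above it at 7.352 CPM and Morc3 at 113.6 CPM, which lies between the untreated cKO values of 107.9 and 116.8 CPM. Setdb1 was below it at 52.36 CPM, Suv39h1 at 21.89 CPM and Cbx5 at 154.1 CPM. Against the WT libraries with IFNγ it was outside the range for all 10. The library names of both say the opposite of the titles, and no condition was drawn from these values.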

How the results depend on the processing

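Counts of members called (of 10) moved by over 1.5 times under these settings, while RLE scaling and a mean of at least 1 CPM moved none. With DESeq2 they were 1 for cKO against WT under IFNγ, 7 for IFNAR1 against control antibody in WT, 3 for control against no antibody in cKO, 5 for the difference of set 3 from set 2, 1 for H3.3cKO:MavsKO and 1 for H3.3cKO:Irf7KO. With no filter on low counts they were 2 in peritoneal cells, 0 without antibody, 3 for control against no antibody in cKO and 4 for set 1 against set 2. With only the compared groups in the model they were 2 for IFNγ in cKO, 0 without antibody, 2 with control antibody, 0 and 0 for IFNAR1 against control antibody in WT and cKO, 3 for control against no antibody in cKO, 2, 4 and 3 in sets 1, 2 and 3, and 1 for set 3 against set 2.

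With the replicate number as a block, counts were 3 for control against no antibody in cKO, 5 for set 3 against set 2 and 1 for H3.3cKO:Irf7KO, where the numbers do not pair the libraries. Where they do, Ehmt1 under IFNγ in WT lost its call and Uhrf1 gained one for control against no antibody in WT, with no other call of a member changed. For IFNγ in cKO the correlation of same-numbered libraries was -0.187, and crossing the numbers, tried after seeing the data, gave 2. Placing the 2 unassigned libraries by title gave 0 for IFNγ in WT and 0 in cKO. With cKO set 1 or set 3 alone as reference, 3 and 3 were called for H3.3cKO:StingKO and 1 and 3 for H3.3cKO:MavsKO, and set 2 alone gave 3 for H3.3cKO:Irf7KO.

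Leaving out each library in turn gave 0 to 5 members for cKO against WT under IFNγ, 2 to 8 for IFNγ in cKO, 0 to 5 for the difference in IFNγ response, 0 to 2 for cKO against WT without antibody and also with IFNAR1 antibody, 1 to 8 and 0 to 2 for IFNAR1 against control antibody in WT and cKO, 0 to 2 and 0 to 2 for control against no antibody in WT and cKO, 0 to 0 in set 2, 3 to 7 in set 3, 1 to 4 and 2 to 5 for the differences of sets 1 and 3 from set 2, and 2 to 6 for H3.3cKO:StingKO. Suv39h1 under IFNγ in cKO was at -0.83 without cKO IFNγ replicate 2, which leaves the library with few mapped reads alone, and at 0.42 without replicate 1. The cause of the other changes was not tested. Calls over all genes moved in such fits as well. For IFNAR1 against control antibody in WT they were 290 without WT control antibody replicate 2 and 6488 without WT IFNAR1 antibody replicate 3. Depth limits Suv39h2 most.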

Other observations

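Of 16 genes of the germline or early embryo, listed as silenced in somatic cells, 2 or 3 had enough reads to be tested in an experiment. Tdrkh, which takes part in piRNA processing and is also read in many tissues, was lower in cKO on day 3 (log2 fold change -0.69, edgeR adjusted p = 0.0233), in set 2 (-0.42, adjusted p = 0.039) and in H3.3cKO:StingKO (-0.52, adjusted p = 0.00254). With IFNγ, the germ cell helicase gene Ddx4 rose by 6.74 in WT (adjusted p = 3.11e-06) and by 4.92 in cKO (adjusted p = 3.68e-05), the testis bromodomain gene Brdt by 1.78 (adjusted p = 0.0025) and 1.70 (adjusted p = 0.0116), and Tdrkh was at -1.60 (adjusted p = 0.000441) and -1.91 (adjusted p = 0.00229). The cKO IFNγ values include the library with few mapped reads. Over all genes, IFNγ called 20% higher and 20.1% lower in WT, and 17.2% and 16.4% in cKO. The filter keeps a gene that has enough reads in the treated group alone, so a rise can rest on very few untreated reads. Whether the silencing of these genes changed was not tested.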
